A study of Mus musculus with 2 samples.

Results

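The cytosolic heat shock proteins described here are 10 chaperone genes of the HSP90, HSP110, HSP70, J-domain and small heat shock families: Hsp90aa1, Hsp90ab1, Hsph1, Hspa1a, Hspa1b, Hspa8, Dnaja1, Dnajb1, Hspb1 and Hspb8. They were chosen by name, and their probes are the non-control spots that the array files name for them. Of the 10, 9 had at least 1 probe and all 9 were measured, out of 19935 measured genes. No probe was named Hspa1b. The 9 genes had 14 probes, of which 13 were well above background on both arrays, where background is the scanner software's own estimate of signal without bound RNA.

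The samples were livers of Pnpla8-/- mice (KO) and of wild-type mice (WT), both C57BL/6N and untreated as far as the labels say, with 1 one-colour Agilent array per genotype. Pnpla8 encodes a calcium-independent phospholipase A2, and the series concerns the release of choline from hepatic phosphatidylcholine. The RNA on an array came from 5 animals mixed in equal parts. Their age is 6 weeks in the sample labels and 8 weeks in the series design, a conflict that these sources do not settle. There was no replicate and therefore no test: genotype, pool and array position cannot be told apart, and precision is limited by having a single array of each genotype. Genes are described by their log2 ratio of KO over WT and by whether they passed 1.5-fold or 2-fold.

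Cytosolic heat shock proteins are ATP-driven or ATP-independent chaperones that fold new proteins, hold unfolded ones in solution and pass damaged ones on for degradation. J-domain proteins bring clients to HSP70, HSP110 proteins exchange its nucleotide, HSP90 finishes the folding of kinases and steroid receptors, and small heat shock proteins bind unfolding proteins without ATP. Many of these genes are induced by heat shock factor 1 (HSF1), which binds inverted repeats of the unit nGAAn in their promoters, while Hspa8 and Hsp90ab1 are the abundant constitutive members of their families.

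The probe for Pnpla8 gave a signal of 4.45 on the KO array, not well above background, against 144.5 on the WT array. Its position relative to the deleted part of the gene was not stated in the labels. The hepatocyte gene Alb (albumin) read 392982 in KO and 393769 in WT liver. The KO array had 65.6% and the WT array 70.1% of its 43020 non-control spots above background, and no spot was saturated. Signals below are the scanner software's background-subtracted intensities. Ratios were taken after each array was divided by its 75th percentile, which was 1018 in KO and 1207 in WT, so equal signals give a ratio above 0.

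Hspb1 was the member with the lowest ratio, at 2.33-fold lower in KO liver, followed by Hsp90aa1 at 1.78-fold lower. Hsph1 was 1.48-fold lower, just short of 1.5-fold. Hspa1a, Dnajb1, Hsp90ab1, Hspa8, Dnaja1 and Hspb8 lay within 1.5-fold, and Hspb8 had the highest ratio, at 1.29-fold higher. The 9 log2 ratios ran from -1.22 to 0.37, with a median of -0.17, against a median of 0.04 over all measured genes. In pooled tissue RNA, fewer cells of a type and less RNA per cell cannot be told apart.

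In counts, 7 of the 9 genes had a ratio below 0, against 43.1% of all measured genes. Hsp90ab1, Hspa8 and Dnajb1, among the 7, had ratios smaller in size than the scanner software's own error of 0.20 per probe. Other processing settings gave 6 to 8, with 8 under quantile, loess, spike-in or no scaling. The median of all genes was itself below 0 with loess (-0.0022), spike-in (-0.11) and no scaling (-0.21). At least 1.5-fold lower were 2 of 9, Hspb1 and Hsp90aa1, where 5.93% of all measured genes were that low. The count was 4 without scaling, when 12.2% of all genes were that low, and 1 with no filter on dim probes, when 8.95% were. At least 1.5-fold higher were 0 of 9, against 4.41% of all genes. At 2-fold, 1 member was lower, against 1.85% of all genes, and 0 were higher, against 1.29% of all genes. With 9 genes these counts rest on single genes, and they are a description of these 2 arrays.

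**Figure D1:**
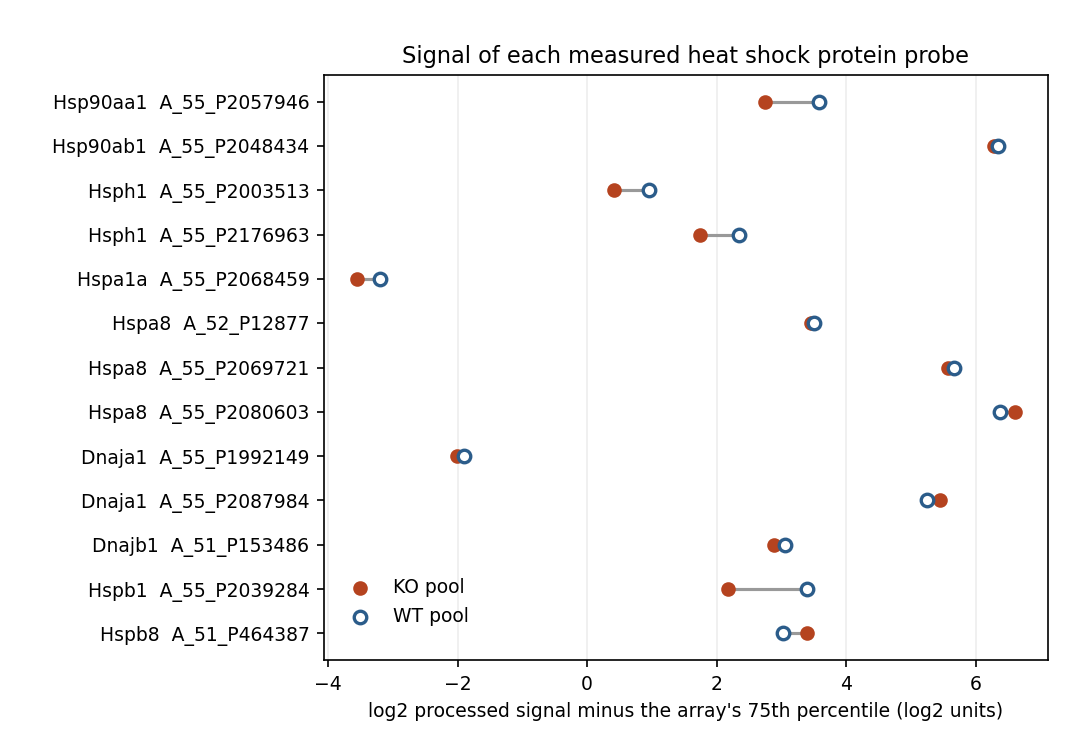
Scaled log2 signal of each of the 13 measured probes (rows) on the KO array (filled) and the WT array (open), in log2 units above each array's 75th percentile; lines join the arrays. The Hspb1, Hsp90aa1 and Hsph1 probes have the widest gaps, all lower in KO, while Hspb8, 1 of 3 Hspa8 probes and 1 of 2 Dnaja1 probes are higher in KO.

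The technical spread sets the scale for these ratios. Repeated spots of the same probe had a median SD of 0.045 in their log2 ratio, over 275 probes, and different probes of the same gene a median SD of 0.095, over 4286 genes. The 95th percentile of the SD between probes was 0.48, so single-probe ratios can be further off than the medians show. The scanner software's own 1-sigma errors, combined over both arrays, came to about 0.20 for each member probe, the largest being 0.22 for Hspa1a. None of these includes the spread between animals.

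Of the HSP90 genes, the stress-inducible Hsp90aa1 had a signal of 6839 in KO liver, against 14397 in WT liver. Its log2 ratio was -0.83 ± 0.20 (scanner error, 1 probe), and 3.10% of all measured genes were as low or lower. The probe lies at chr12:111929248-111929307 on the minus strand in mm9, the build named in the scanner files. A further probe named Hsp90aa1, designed on an expressed sequence tag without a stated position, read 6.49 in KO and 3.41 in WT, not well above background on either array, and was left out; with it let in, the median of the Hsp90aa1 probes was 0.17.

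Hsp90ab1, the constitutive HSP90, had a signal of 79469 in KO liver, against 98299 in WT liver, a log2 ratio of -0.06 ± 0.20 (1 probe, chr17:45704788-45704847, minus strand, mm9). The ratio of Hsp90aa1 minus that of Hsp90ab1 was -0.77, so the HSP90 genes differed between the arrays by unequal amounts, on 1 probe each.

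Hsph1 encodes HSP110, a nucleotide exchange factor for HSP70 that also holds unfolded proteins. Its first probe read 1362 in KO and 2335 in WT liver, a log2 ratio of -0.53 (chr5:150420110-150420169, minus strand, mm9). Its second probe read 3395 in KO and 6135 in WT liver, a log2 ratio of -0.61 (chr5:150419744-150419803, minus strand, mm9). These probes do not overlap and their ratios differed by 0.076, so Hsph1 is the low member whose ratio rests on more than 1 probe. Its gene ratio of -0.57 had an SD of 0.054 between probes, and 6.18% of all genes were as low or lower. It passed 1.5-fold without scaling (-0.82), with spike-in (-0.72), loess (-0.62) or quantile scaling (-0.61), and from its brightest probe (-0.61).

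The HSP70 probes are shown because the family's members are close in sequence. The Hspa1a probe, the first and second Hspa8 probes and the first Hsph1 probe, from the low member with more than 1 probe, read as follows, 5′ to 3′.
Hspa1a A_55_P2068459: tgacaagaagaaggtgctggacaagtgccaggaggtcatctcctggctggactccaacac
Hspa8 A_52_P12877: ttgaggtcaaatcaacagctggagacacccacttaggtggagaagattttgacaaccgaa
Hspa8 A_55_P2069721: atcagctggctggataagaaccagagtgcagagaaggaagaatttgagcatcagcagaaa
Hsph1 A_55_P2003513: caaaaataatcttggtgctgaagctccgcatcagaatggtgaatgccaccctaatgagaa
The longest run of bases that the Hspa1a probe shares with any of the 3 Hspa8 probes is 9 of its 60 bases, and no pair among the 91 pairs of member probes shares a longer run. Probes were compared only with each other. Whether a probe matches the transcript of another member was not tested.

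Hspa1a, the stress-inducible HSP70, had a dim signal of 86.6 in KO liver, against 130.9 in WT liver. Its log2 ratio was -0.35 ± 0.22 (scanner error, 1 probe, chr17:35094199-35094258, minus strand, mm9), or 1.28-fold lower. The array file annotates the same probe to transcripts of both Hspa1a and its near-identical neighbour Hspa1b, so the value stands for the pair. At this signal the background step matters: the log2 ratio was -0.10 after normexp background correction and -0.14 from the uncorrected mean signal. The Hspa8 ratio was -0.07 under both, so the gap between Hspa1a and Hspa8, -0.29 as reported, nearly closes there. Both settings leave a constant in the signal (an offset of 50, or the background), which draws ratios of dim probes toward 0. The share of all genes past 2-fold fell from 3.14% as reported to 1.32% and 1.39%. These settings therefore cannot tell how large the gap is.

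Hspa8 encodes HSC70, the constitutive HSP70. Its probes read 11160, 48679 and 99160 in KO liver, against 13766, 61610 and 100718 in WT liver. The log2 ratios were -0.06, -0.09 and 0.22, with a median of -0.06 and an SD between probes of 0.17. The probe above 0 and those below 0 all lay within 1.5-fold. The array file places these probes at chr5:5782847-5782906, chr5:88493266-88493325 and chr5:5781530-5781589 in mm9, while RefSeq (GRCm38.p6) has Hspa8 on chromosome 9; whether they also bind RNA from those other loci was not tested.

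The J-domain cochaperones that stimulate HSP70 lay within 1.5-fold. Dnajb1, the main inducible class B protein, had a signal of 7524 in KO liver, against 10048 in WT liver, a log2 ratio of -0.17 ± 0.20 (1 probe, chr8:86135660-86135719, plus strand, mm9). Dnaja1, a class A protein, gave log2 ratios of -0.12 and 0.19 from its probes. The first, at chr4:40681938-40681997 (plus strand, mm9), read 252 in KO and 325 in WT liver. The second read 44454 in KO and 46181 in WT liver and is placed at chr1:43055939-43055998, although RefSeq has Dnaja1 on chromosome 4. With probes on both sides of 0, no direction is given for Dnaja1.

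The small heat shock proteins lay at opposite ends of the members. Hspb1, an oligomeric chaperone that binds unfolding proteins and actin, had a signal of 4581 in KO liver, against 12648 in WT liver. Its log2 ratio was -1.22 ± 0.20 (scanner error, 1 probe), which ranked 160 from the lowest of all measured genes, with 0.803% of genes as low or lower. That single probe is placed at chr13:45173742-45173801 (minus strand, mm9), while RefSeq has Hspb1 on chromosome 5, and no other probe of the gene was present to set beside it. The probe holds the polyadenylation signal AATAAA at base 39 of its 60. Whether it reads the chromosome 5 gene, a copy elsewhere or both was not tested.

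Hspb8, which acts with BAG3 to route misfolded proteins to autophagy, had a signal of 10710 in KO liver, against 9835 in WT liver. Its log2 ratio was 0.37 ± 0.20 (1 probe, chr5:116859063-116859122, minus strand, mm9), and 2185 of the 19935 genes were as high or higher. The ratio of Hspb1 minus that of Hspb8 was -1.59, the full range of the members. The HSPB8 partner Bag3, itself an HSF1 target, had a log2 ratio of -0.03.

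**Figure D2:**
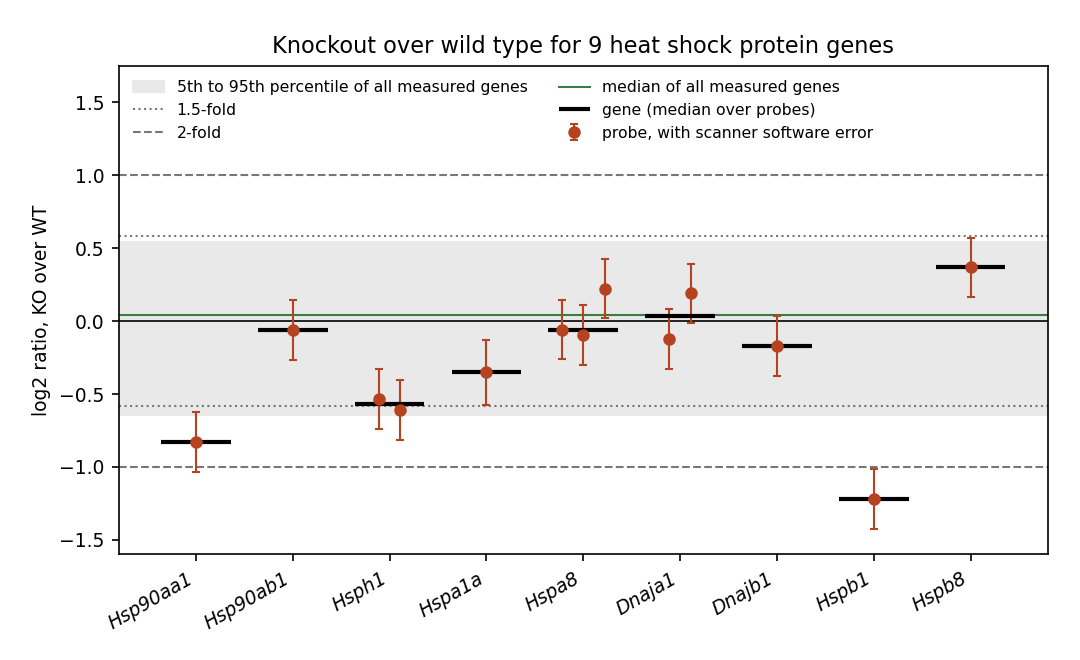
Log2 ratio of KO over WT for the 9 measured genes. Points are probes with the scanner software's 1-sigma error, black bars are genes, the grey band spans the 5th to 95th percentile of all measured genes (-0.64 to 0.54), and dotted and dashed lines mark 1.5-fold and 2-fold. Hspb1 and Hsp90aa1 lie below the band, Hsph1 sits just inside it near the 1.5-fold line, and the other 6 lie within the band.

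Promoter sequence was set beside these ratios, from RefSeq windows of GRCm38.p6 that run from 250 bases before to 50 after each transcript start. Entries were matched by symbol for 7 of the 10 members, with 11 windows between them, and not for Hsp90aa1, Hsp90ab1 or Hspa8. The motif was a pair of inverted heat shock units, GAANNTTC or TTCNNGAA, read on both strands (each letter string is its own reverse complement). It occurred in at least 1 window of 6 of the 7 members with an entry, and of 17.0% of 27025 genes. By window it occurred in 7 of 11, against 15.1% of 32851 windows. The motif was found for Hspb1, Hsph1, Hspa1a, Hspa1b, Dnaja1 and Hspb8, and not for Dnajb1.

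Bases upstream of the start are shown for the low small heat shock gene, the high one, Hsph1 and Hspa1a, 5′ to 3′ on each gene's strand, with motif pairs in capitals.
Hspb1, chr5:135887669-135887918, plus strand: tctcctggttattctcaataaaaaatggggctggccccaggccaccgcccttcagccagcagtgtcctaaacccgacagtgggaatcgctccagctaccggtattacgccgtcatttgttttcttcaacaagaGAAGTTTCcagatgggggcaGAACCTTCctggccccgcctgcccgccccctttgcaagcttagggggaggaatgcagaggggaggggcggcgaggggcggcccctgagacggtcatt
Hspb8, chr5:116422865-116423114, minus strand: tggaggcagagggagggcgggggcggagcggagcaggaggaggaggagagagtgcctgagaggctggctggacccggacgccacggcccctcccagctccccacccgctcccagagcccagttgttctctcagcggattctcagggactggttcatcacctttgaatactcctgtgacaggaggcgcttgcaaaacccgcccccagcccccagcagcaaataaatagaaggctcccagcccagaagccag
Hsph1, chr5:149636337-149636586, minus strand: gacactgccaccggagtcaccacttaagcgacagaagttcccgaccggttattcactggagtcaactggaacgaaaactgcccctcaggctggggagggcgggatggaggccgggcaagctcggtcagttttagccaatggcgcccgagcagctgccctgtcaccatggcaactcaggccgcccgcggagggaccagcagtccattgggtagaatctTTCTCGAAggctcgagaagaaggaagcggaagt
Hspa1a, chr17:34972157-34972406, minus strand: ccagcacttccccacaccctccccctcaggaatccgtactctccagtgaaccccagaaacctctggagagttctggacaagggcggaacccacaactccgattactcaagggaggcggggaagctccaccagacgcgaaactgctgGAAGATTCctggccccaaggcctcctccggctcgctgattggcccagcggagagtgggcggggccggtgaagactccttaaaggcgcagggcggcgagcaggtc
Hspb1, with the lowest ratio, holds GAAGTTTC beginning at -117 and GAACCTTC beginning at -97 from the start. Hsph1 holds TTCTCGAA at -33, and Hspa1a holds GAAGATTC at -104, as does Hspa1b, whose upstream window differs from that of Hspa1a at 3 of 250 positions. Hspb8, with the highest ratio, has no pair upstream and GAAGTTTC at 3 bases after the start. Of the 3 Dnaja1 windows, 1 holds a pair, GAAAATTC at -124.

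A longer run of 3 alternating units, GAANNTTCNNGAA or TTCNNGAANNTTC, was found in 1 of the 7 members, Hsph1, as TTCTGGAAAGTTC beginning 37 bases after the start; it overlaps the shorter motif. Over all genes with an entry the share was 0.662%. TATAAA occurred in 0 of 7 members and in 15.7% of all genes, and CCAAT in 5 of 7 members and in 41.1% of all genes, both read on both strands. A match is only a string of letters in a window, and members with the paired motif lay at both ends of the ratios.

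Genes that work with the members mostly lay within 1.5-fold. Of the other cytosolic HSP70 genes, 6 of 7 were measured, with a median log2 ratio of -0.05 and 1 gene past 1.5-fold, Hspa2, a form known from testis, at 0.60. Hspa4, an HSP110 relative of Hsph1, had a ratio of -0.53, but its 3 probes ran from -0.65 to 0.19. Hspa4l had -0.30, and Hspa1l had 0.38 at dim signals of 34.4 in KO and 31.4 in WT. Of 12 other cytosolic and nuclear J-domain genes none passed 1.5-fold; their median was 0.13, with Dnajc9 at -0.53, Dnajb6 at 0.39, Dnajc5 at 0.30 and Dnajb5 at -0.19. Of 8 other small heat shock genes, 6 were measured with a median of -0.17. Cryaa, an alpha-crystallin of the lens, was 1.53-fold lower at dim signals of 44.6 in KO and 78.3 in WT, and the others named were Hspb2 at -0.36, Hspb9 at 0.23 and Cryab at -0.22.

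The 8 nucleotide exchange and release factors of HSP70 had a median of 0.03, and none passed 1.5-fold; Bag4 had the largest at 0.40, followed by Hspbp1 at 0.16, Bag2 at -0.13 and Bag6 at 0.10. The 18 cochaperones of HSP90 had a median of 0.00, with 1 past 1.5-fold on each side. Fkbp5, an immunophilin that slows steroid receptor maturation, had a signal of 13519 in KO and 9541 in WT liver, 1.68-fold higher. Ahsa2 read 24.4 in KO and 51.8 in WT liver, 1.79-fold lower and dim on both arrays. Stip1, which links HSP70 to HSP90, had a log2 ratio of -0.48, and Ppp5c, a phosphatase bound to HSP90, 0.29.

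Of the heat shock factors and their binding proteins, 5 of 7 were measured and none passed 1.5-fold. Hsf1 itself had a signal of 1381 in KO liver, against 1601 in WT liver, a log2 ratio of 0.03. Hsf2 had -0.26 and Hsf4 0.23, and Hsf2bp had 0.24 at dim signals of 28.4 in KO and 28.6 in WT. The 17 other HSF1-inducible genes had a median of -0.06, with 11 below 0 and 6 above 0, where 43.1% of all measured genes were below 0. Of the 17, 1 was at least 1.5-fold lower, against 5.93% of all measured genes. That gene was Serpinh1, the collagen chaperone of the endoplasmic reticulum, with 590 in KO and 1257 in WT liver, 1.80-fold lower. Hspa4, Stip1 and Hspa4l were the next in size in this list. Some genes stand in more than 1 list, such as the mitochondrial Hspd1 and Hspe1, which are also HSF1 targets.

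The 14 genes of the cytosolic chaperonin TRiC and prefoldin, which fold actin and tubulin, had a median of 0.00 and none passed 1.5-fold, with Pfdn2 at 0.28 and Cct3 at -0.27, Cct6a at 0.14 and Cct5 at -0.12. Among chaperones of other compartments, the 12 mitochondrial chaperones and proteases were all above 0, from 0.08 to 0.43, with a median of 0.23 and none past 1.5-fold; Clpx had 0.43, Dnajc19 0.35, and Hspa9 and Grpel1 0.32 each. Of these 12, 11 were above 0 with quantile or loess scaling, 8 with spike-in scaling and 5 without scaling, where every ratio is 0.25 lower. As reported, 43.1% of all measured genes were below 0. The median of all genes was 0.04 as reported, -0.11 with spike-in scaling and -0.21 without scaling. Of 12 ER chaperones, 11 were below 0, with a median of -0.31 and 2 at least 1.5-fold lower. That low were 4 with quantile or loess scaling, against 5.56% and 6.48% of all genes. The count was 5 with spike-in scaling, against 9.26%, and 6 without scaling, against 12.2%. The 2 as reported were Sdf2l1, with 954 in KO and 2432 in WT liver (2.15-fold lower), and Hyou1, with 75.8 in KO and 156.5 in WT liver (1.74-fold lower). Calr had a ratio of -0.58 and Pdia6 -0.54. Counting each gene of the lists in these paragraphs once, 99 of 104 were measured, 2 passed 1.5-fold upward (2.02%) and 5 downward (5.05%), against 4.41% and 5.93% of all measured genes, and the median was 0.02. Without scaling 0 passed upward and 13 downward (13.1%, against 12.2% of all genes), with a median of -0.23. With spike-in scaling 1 passed upward (1.01%, against 2.66% of all genes) and 11 downward (11.1%, against 9.26%), with a median of -0.14. The members' median of -0.17 lay between those of the ER and mitochondrial lists.

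**Figure D3:**
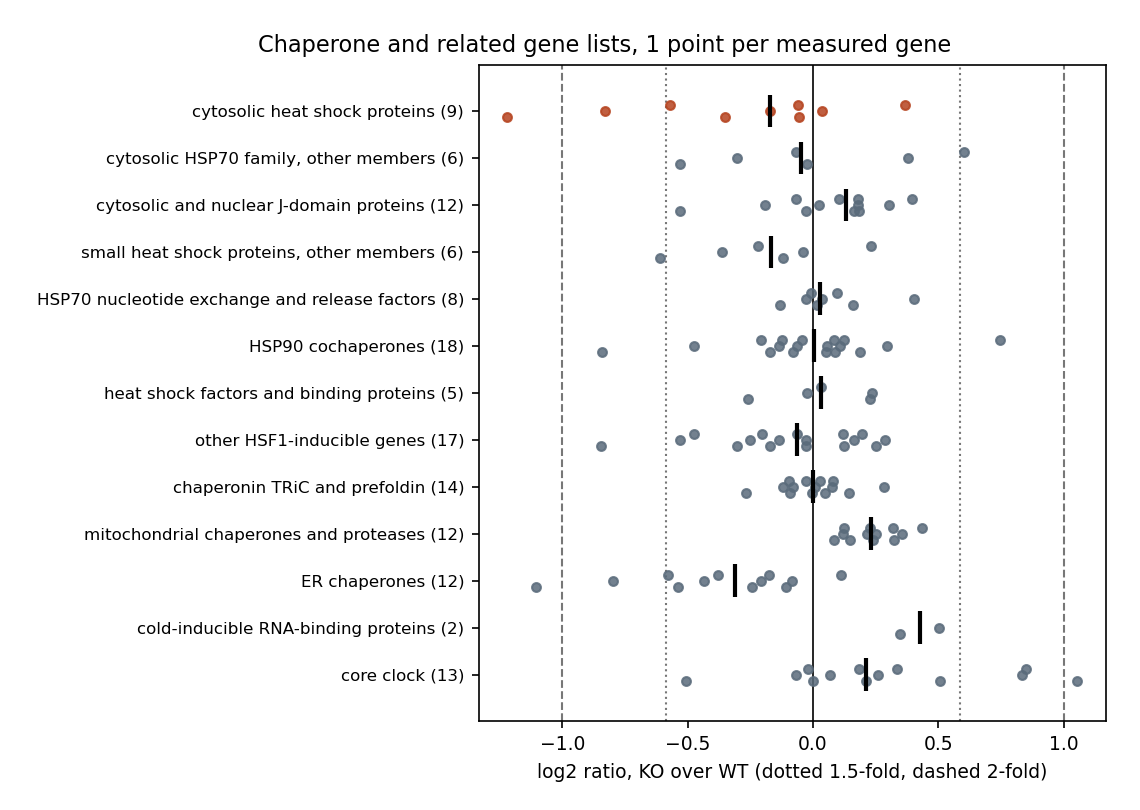
Log2 ratio of KO over WT for each measured gene (points) of the cytosolic heat shock proteins (top row) and related lists, with the number measured in brackets; black bars are medians, and dotted and dashed lines mark 1.5-fold and 2-fold. The cytosolic heat shock proteins run from -1.22 to 0.37. The mitochondrial chaperones all lie above 0 as scaled here (5 of 12 without scaling, where every point is 0.25 lower). Of the ER chaperones, 11 of 12 lie below 0, against 43.1% of all measured genes.

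Markers of other liver cell types differed between the pools beside the heat shock genes. All 7 Kupffer cell markers were at least 1.5-fold lower, with a summed scaled signal of 37.3 in KO liver, against 80.2 in WT liver. So were 6 of 7 lymphocyte markers, with sums of 1.62 in KO and 2.26 in WT (0.692 and 1.30 without Cd3e). Of the neutrophil markers 3 of 4 were that low, with sums of 0.540 in KO and 1.40 in WT. Of all measured genes, 5.93% were that low. Median scaling, quantile scaling or the brightest probe gave 5 of 7 lymphocyte markers, against 4.99%, 5.56% and 6.08% of all genes. Nkg7, among the 6 as reported, had 2 probes, at -1.35 and -0.04. With normexp background or uncorrected mean signal, 3 of 7 lymphocyte and 2 of 4 neutrophil markers were that low. The all-gene shares were then 2.91% and 3.06%. The Kupffer count stayed at 7 under every setting. Of the stellate cell and fibroblast markers, 2 of 7 were at least 1.5-fold lower (Acta2 at -1.01 and Col3a1 at -0.61). Below 0 were 6 of 7, against 43.1% of all measured genes, and the median of these markers was -0.40. Their sums of 48.8 in KO and 50.2 in WT are mostly 1 gene, Dcn, without which they were 5.09 in KO and 7.53 in WT. The endothelial list had 1 of 6 that low, with sums of 17.2 in KO and 17.7 in WT.

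The 8 hepatocyte markers had none that low and 2 at least 1.5-fold higher, against 4.41% of all measured genes. These 2 were the urea cycle gene Cps1 at 0.99 and the amino acid catabolic gene Tat at 1.32. The hepatocyte sums were 1407 in KO and 1152 in WT. Cholangiocyte markers had 0 of 5 past 1.5-fold, with sums of 0.329 in KO and 0.330 in WT. Of 4 measured erythroid markers 1 was at least 1.5-fold higher, Klf1 at 0.86, against the same 4.41%. The erythroid sums were 15.4 in KO and 14.6 in WT. All markers of the Kupffer and lymphocyte lists were well above background on both arrays, and the neutrophil marker Ly6g had no probe. The part of these cells in the lower ratios of Hspb1, Hsp90aa1 and Hsph1 was not tested.

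**Figure D4:**
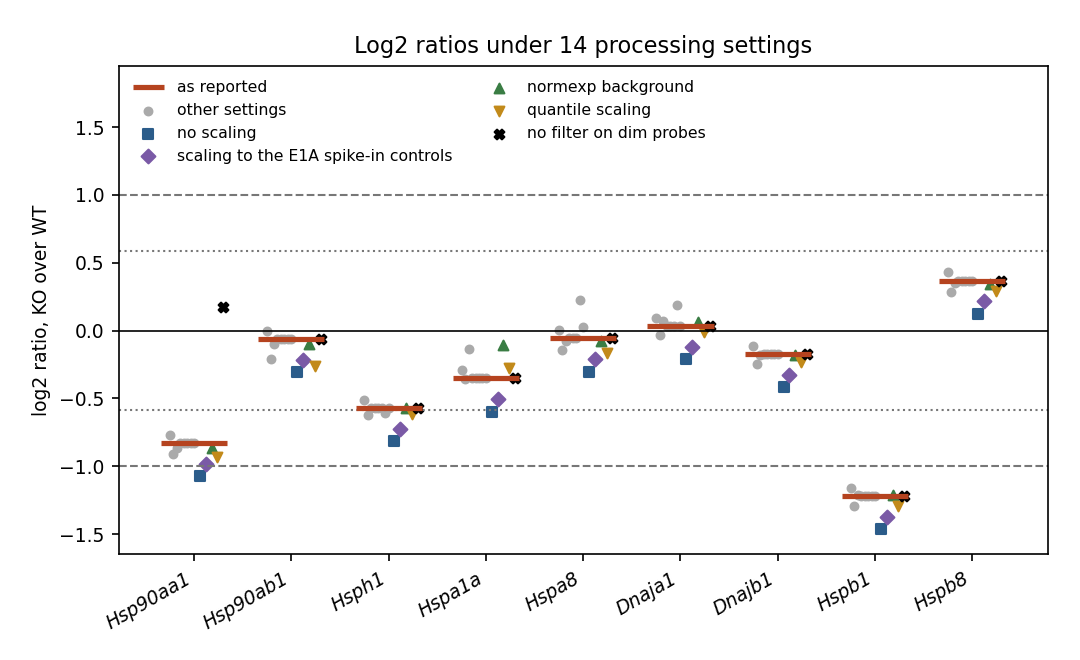
Log2 ratio of KO over WT for the 9 genes as reported (bars) and under 13 other processing settings (points, the most different ones by shape and colour); dotted and dashed lines mark 1.5-fold and 2-fold. Hspb1 and Hsph1 stay below 0 and Hspb8 above 0 throughout, unscaled values lie 0.25 lower for every gene, and Hsp90aa1 turns to 0.17 where its dim second probe is let in.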

How the data were processed

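Per the submitters' processing notes, the authors read spot intensity from the arrays with Agilent Feature Extraction (version 11.5.1.1). The deposited scanner files give the intensity of each spot on a linear scale, raw and background-subtracted. The deposited value table also holds intensity, not centred per gene: each column is the processed signal of its array divided by a constant, 1019 for KO and 1207 for WT, with column medians of 0.0763 for KO and 0.0800 for WT. The origin of the constant is not given in the labels. The constants nearly equal the 75th percentiles used here, 1018 for KO and 1207 for WT, so the deposited table is close to the reported scaling. Per the labels' protocols, RNA was purified on RNeasy columns, and the Low Input Quick Amp kit turned 200 ng into Cy3-labelled target. There were 0 per-sample columns left unused.

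From the background-subtracted signal, log2 was taken and the 75th percentile of each array over non-control spots was subtracted. Spots that the software marked as non-uniform or as population outliers (170 on the KO array and 119 on the WT array) were left out, and spots of 1 probe were averaged. A gene was the median over its probes well above background on both arrays. At the negative controls the scaled log2 signal was 0.53 higher in KO, which pulls very dim genes upward, and the median ratio by decile of signal ran from 0.00 to 0.11. Of the probes, 28313 were named through accessions in the RefSeq table of GRCm38.p6, 2203 through symbols and 174 through synonyms, and 8720 kept the file's name.

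With 1 array per genotype no test was made, no paired or replicate fit was possible and no p-value is given. The members and gene lists were chosen with earlier results of these data known. Named genes are all members, and in each list up to 4 genes with the largest absolute ratio, plus genes named for their role beside a member. The alternatives were scaling by the median, by quantiles, by loess (span 0.3) or not at all, normexp background with an offset of 50, uncorrected mean signal, the deposited table, kept outlier spots, other filters on dim probes and other probe summaries. Scaling to 8 E1A spike-in controls was chosen after seeing the data. The steps were tested on simulated data. A comparison of protein sequences was planned and not run. Tools were Python 3.11.15 with numpy 2.4.6, pandas 2.3.3 and statsmodels 0.14.6, and R 4.3.3 with limma 3.58.1.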

Additional observations from a re-analysis of the deposited data

How the results depend on the processing

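Under 12 other settings and 1 chosen after seeing the data, Hspb1, Hsph1, Hsp90ab1, Hspa1a and Dnajb1 kept a ratio below 0. Hspb8 kept one above 0. Hspb1, Hsp90ab1, Hspa1a, Dnajb1 and Hspb8 have 1 probe each. For them the filters on dim probes, the probe summaries and kept outlier spots only repeated the reported value. The deposited table nearly repeated it for every member. Hsp90ab1 ran from -0.31 to -0.00071 and Dnajb1 from -0.42 to -0.11. Both reported ratios were smaller in size than their scanner error of 0.20. Hspb1 ran from -1.47 to -1.16, Hsph1 from -0.82 to -0.51 and Hspb8 from 0.12 to 0.43. Hspa8 ran from -0.30 to 0.22 and Dnaja1 from -0.21 to 0.19, so neither has a direction. Hsp90aa1 turned to 0.17 with no filter on dim probes, because its dim second probe then enters the median. That setting moved the members' median to -0.061 and the count at least 1.5-fold lower to 1, against 8.95% of all genes. Without scaling, the median of all genes shifted by -0.25 and the members' median was -0.42. Then 4 members were at least 1.5-fold lower, against 12.2% of all genes. At least 2-fold lower were 2 members, against 758 of 19935 genes. Scaling to the spike-in controls shifted all genes by -0.15 and gave a members' median of -0.33. The count at least 1.5-fold higher was 0 throughout, where between 2.12% and 7.32% of all genes were that high. Relative to the median of all genes Hspb1 lay between -1.33 and -1.26 throughout. Over all genes, 257 were at least 2-fold higher and 368 lower as reported (41.1% higher), against 115 and 758 without scaling (13.2%), 142 and 590 with spike-in scaling (19.4%), 135 and 128 with normexp (51.3%), 141 and 137 with the uncorrected mean signal (50.7%), and 994 and 1235 with no filter on dim probes. No replicate could be left out. No paired analysis was possible because each genotype has 1 array. Dim signals limit Hsp90aa1, through its second probe, and Hspa1a, which ran from -0.60 to -0.10.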

Other observations

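The cold-inducible RNA-binding proteins, which respond to temperature in the direction opposite to heat shock genes, were both above 0. Of all measured genes, 43.1% were below 0. Cirbp had a signal of 2231 in KO liver, against 1864 in WT liver, a log2 ratio of 0.50. Rbm3 had a log2 ratio of 0.35, with its 3 probes between -0.05 and 0.41. Neither reached 1.5-fold.

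Of the core clock genes, 13 of 14 were measured, with a median log2 ratio of 0.21. At least 1.5-fold higher were 3, against 4.41% of all measured genes. Below 0 were 3 of the 13, against 43.1% of all measured genes, and the lowest of the 13 was at -0.51. Ciart, a repressor of the clock, had a signal of 1275 in KO liver, against 728 in WT liver (2.08-fold higher). Arntl, the activator BMAL1, read 217 in KO and 142.6 in WT liver (1.80-fold higher), and the repressor Cry1 read 90.7 in KO and 60.4 in WT liver (1.78-fold higher). Per1, a period gene of the repressing arm, had a log2 ratio of 0.51, with its 2 probes at 0.38 and 0.64. Without scaling the same number of genes, 3, was at least 1.5-fold higher, against 2.12% of all genes, and the median was -0.04. The count was 2 with normexp background, against 2.74% of all genes, and 4 from the brightest probe, against 4.62%. The labels give no time of day for the livers. Its part in the ratios of the heat shock genes was not tested.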
